A study of Mus musculus with 15 samples.

Results

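The genes described here encode the subunits of oxidative phosphorylation, the 5 protein complexes of the inner mitochondrial membrane that carry electrons to oxygen and make ATP. They were chosen by symbol among protein-coding mouse genes: *Nduf* genes of the a, b, c, s and v series, *Sdha* to *Sdhd*, the *Uqcr* genes, *Cox4* to *Cox8* genes, the *Atp5* genes and the protein-coding genes of the mitochondrial genome. This gave 102 genes of the 35142 in the data, of which 46 belong to complex I, 4 to complex II, 9 to complex III, 22 to complex IV and 21 to complex V. 89 of them are nuclear and 13 are mitochondrially encoded. The symbols leave out *Cyc1*, a subunit of complex III, and *Ndufab1*, a subunit of complex I, and they place *Ndufa4* in complex I although its protein is now counted with complex IV.

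Dissociated cerebellar cells of wild-type C57BL/6 pups (P0-P4) were kept in Neurobasal Plus medium until day 14 in vitro and then received IL-12p70, the bioactive 2-chain form of this cytokine (recombinant, murine), for 18 h. There were 5 unstimulated cultures, 5 with 30 ng/ml (the lower dose) and 5 with 100 ng/ml (the higher dose), all of the same genotype and with no further agent. The labels call the cells neurons, but no sorting is described, and the RNA is that of all cells in it. The labels do not say whether the replicates came from separate litters or preparations, so the p-values measure the spread between these cultures.

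Complexes I, III and IV pump protons while electrons pass from NADH to oxygen, complex II feeds in electrons from succinate, and complex V (ATP synthase) uses the proton gradient to make ATP. Complex II is built only from nuclear genes, whereas the others combine nuclear subunits with core subunits encoded in the mitochondrial genome, so the 2 genomes must supply parts of the same machines. Neurons depend heavily on this route for ATP, and the small mitochondrial genome is transcribed from both strands as long RNAs that are then cut into messages.

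Each culture had between 25746096 and 38435850 reads assigned to transcripts. Of the 15360 genes with at least 1 CPM (reads divided by the TMM-scaled library size of the culture) in at least 2 cultures, 93 were members (80 nuclear and 13 mitochondrially encoded), and their groups were compared by the quasi-likelihood F-test of edgeR, fitted to the 15 cultures together. P-values were adjusted by Benjamini and Hochberg over all 15360 genes (FDR), and a gene was called at an FDR under 0.05. In unstimulated cultures the summed level of 12 neuron markers was 428 ± 29.4 CPM (SD, n = 5), below that of 8 astrocyte markers (6483 ± 311 CPM), 8 oligodendrocyte-lineage markers (8565 ± 1047 CPM) and 9 microglia markers (5460 ± 826 CPM). The Purkinje cell marker *Pcp2* was below the filter, and 8 of the 11 neuron markers tested had a log2 fold change below 0 at each dose. At the lower dose 1 was called higher and 2 lower, where 4.16% of all genes were called up and 3.71% down. At the higher dose 1 was called each way, where these shares were 5.83% and 3.93%. In one of the higher-dose cultures (replicate 2), the mean correlation of log2 counts with the other cultures of its group, over genes with a mean of at least 30 reads, was 0.9875, and in the 14 other cultures this mean was between 0.9909 and 0.9935. This culture also had the fewest reads. The deposited values hold an effective length for each transcript. In this culture 13453 transcripts had one above their full length, against 7358 to 9982 in the other cultures. What sets this culture apart was not tested, and results that rest on it are given with and without it.

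In unstimulated cultures the mitochondrial messages stood far above the nuclear ones. Levels are compared between genes in TPM, the share of transcripts scaled to one fixed sum per culture, which allows for transcript length. The median level of the 13 mitochondrially encoded genes was 4364 TPM, and that of the 80 nuclear genes was 262 TPM. The nuclear medians were 198 TPM in complex I, 160 TPM in complex II, 385 TPM in complex III, 511 TPM in complex IV and 440 TPM in complex V. Subunits of one complex did not share one level: in complex I, *Ndufa4* stood at 746 ± 52.0 TPM (SD, n = 5) and *Ndufs1*, which carries iron-sulfur clusters, at 64.1 ± 1.87 TPM. In complex III, *Uqcrq* stood at 588 ± 34.0 TPM and *Uqcrfs1*, the Rieske iron-sulfur protein, at 93.1 ± 4.70 TPM. Complex II was the most even, from *Sdhc*, a membrane anchor, at 285 ± 26.2 TPM to *Sdha*, the flavoprotein that oxidizes succinate, at 138 ± 14.3 TPM. In complex V the nuclear genes lay between *Atp5pb*, part of the peripheral stalk, at 246 ± 9.46 TPM and *Atp5f1b*, the catalytic beta subunit, at 912 ± 40.0 TPM. The median coefficient of variation between unstimulated cultures was 6.21% for the nuclear and 6.68% for the mitochondrially encoded genes.

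**Figure D1:**
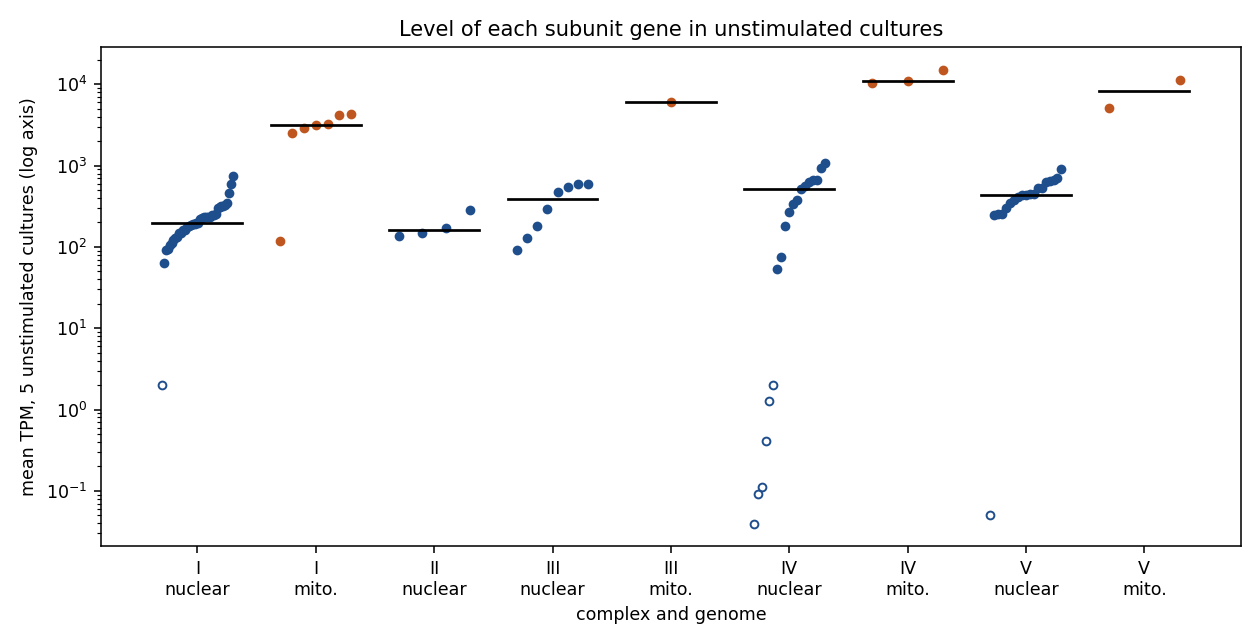
Mean TPM of each subunit gene over the 5 unstimulated cultures on a log axis, by complex and genome (blue, nuclear; orange, mitochondrially encoded; filled, tested; open, below the filter; bars, medians of the tested genes). Mitochondrially encoded genes lie at 2508 TPM or above except mt-Nd6 at 118 TPM, and the nuclear genes tested lie between 53.1 and 1075 TPM; Ndufb11b, at 0, is not drawn.

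Several subunits have tissue-specific alternatives, and here one form held nearly all of the RNA in most of them. Of the summed TPM of *Cox4i1* and *Cox4i2*, the latter known as a hypoxia-responsive lung form, *Cox4i2* held 0.118% ± 0.0495 (SD, n = 5) in unstimulated cultures. The muscle forms *Cox6a2* and *Cox8b* held 0.296% and 0.0642% of the pairs with *Cox6a1* and *Cox8a*. *Cox6b2*, the testis form, held 10.2% of the pair with *Cox6b1*. *Ndufa4l2*, a hypoxia-inducible relative of *Ndufa4*, held 0.266% of that pair. The 3 genes *Atp5mc1*, *Atp5mc2* and *Atp5mc3*, which encode the same mature c subunit of the ATP synthase rotor, held 22.4%, 38.5% and 39.2% of their sum. The low forms were among the 9 members below the filter: *Ndufa4l2*, *Ndufb11b*, *Cox4i2*, *Cox5b-ps*, *Cox6a2*, *Cox7b2*, *Cox8b*, *Cox8c* and a second gene named *Atp5po* (ENSMUSG00000116933). *Ndufb11b* had 0 reads in all 15 cultures, which allows up to 3 counts in a culture, or 0.117 CPM in the shallowest one, where counting error alone is considered. *Cox7b2* had at most 2 reads in a culture and *Cox8c*, a testis form, at most 1.

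IL-12 moved few of the nuclear subunit genes, and by small amounts. At the higher dose, 4 of the 93 members tested were called (4.30%), against 9.77% of all genes tested: 3 nuclear genes rose, where 5.83% of all genes rose, and 1 mitochondrially encoded gene fell, where 3.93% of all genes fell. At the lower dose, 1 member was called (1.08%), against 7.87% of all genes (4.16% up and 3.71% down), and it fell. With both doses averaged, 1 member rose and 2 fell (3.23% of the members), against 11.9% of all genes (6.71% up and 5.22% down). Between the doses edgeR called 0 members, where 0.579% of all genes were called, although 8 members had an unadjusted p under 0.05. DESeq2 also called 0 members there. The 5 genes called in any comparison were *Cox7a1*, *Cox5a*, *Ndufv1*, *Cox7a2l* and *mt-Co1*, of which 4 count with complex IV by their symbols. All comparisons with unstimulated cultures share the same 5 controls, so the values at both doses are not independent of each other.

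The promoters of the 4 nuclear genes called are shown so that they can be set beside each other, from RefSeq (GRCm38.p6), 250 bases before to 50 bases after the start of each gene and read 5′ to 3′ on its own strand. Capitals mark ACGTG or its reverse complement CACGT, the form of the hypoxia response element core that was searched. The form GCGTG was not searched and is not marked. The other motifs searched on both strands, GCGCATGC (NRF1), AAGATGG (YY1) and CCGGAAG (ETS factors), were not found in these 4 windows.
Cox7a1 promoter, chr7:30183921-30184220, + strand: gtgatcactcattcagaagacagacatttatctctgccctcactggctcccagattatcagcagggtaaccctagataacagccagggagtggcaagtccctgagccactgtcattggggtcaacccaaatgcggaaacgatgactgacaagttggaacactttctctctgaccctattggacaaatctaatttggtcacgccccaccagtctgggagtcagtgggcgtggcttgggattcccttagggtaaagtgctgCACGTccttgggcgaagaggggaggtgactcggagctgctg
Cox5a promoter, chr9:57520982-57521281, + strand: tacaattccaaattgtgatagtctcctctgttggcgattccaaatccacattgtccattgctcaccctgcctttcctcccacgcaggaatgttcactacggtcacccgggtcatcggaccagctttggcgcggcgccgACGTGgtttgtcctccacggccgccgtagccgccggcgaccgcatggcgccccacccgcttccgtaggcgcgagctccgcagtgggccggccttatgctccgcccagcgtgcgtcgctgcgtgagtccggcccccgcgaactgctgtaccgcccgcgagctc
Ndufv1 promoter, chr19:4012706-4013005, - strand: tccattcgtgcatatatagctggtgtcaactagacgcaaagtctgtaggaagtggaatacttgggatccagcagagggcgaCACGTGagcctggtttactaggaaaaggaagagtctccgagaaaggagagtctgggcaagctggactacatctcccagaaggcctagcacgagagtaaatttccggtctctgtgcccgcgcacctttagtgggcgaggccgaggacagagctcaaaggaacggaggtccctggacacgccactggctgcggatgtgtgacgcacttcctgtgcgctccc
Cox7a2l promoter, chr17:83514284-83514583, - strand: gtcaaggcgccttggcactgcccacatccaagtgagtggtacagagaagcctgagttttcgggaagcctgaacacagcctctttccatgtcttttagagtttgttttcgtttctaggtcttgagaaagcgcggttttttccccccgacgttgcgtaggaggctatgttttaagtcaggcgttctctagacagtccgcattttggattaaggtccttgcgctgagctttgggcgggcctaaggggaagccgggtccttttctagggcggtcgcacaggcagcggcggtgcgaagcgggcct
The searched form stood once in *Cox7a1* and *Cox5a*, as a palindrome in *Ndufv1* where both readings overlap, and not in the window of *Cox7a2l*. It is short, and 19.7% of the 27025 genes with a promoter in the table hold it. Of the 88 nuclear member symbols, 68 had a promoter there, and 26.5% of these held the searched form. NRF1, YY1 and ETS factors are known regulators of respiratory genes, and their motifs stood in 14.7%, 14.7% and 22.1% of the 68 promoters against 2.80%, 6.48% and 9.12% of all promoters. A match is a run of letters and says nothing of binding in these cells.

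*Cox7a1* (ENSMUSG00000074218, chr7:29883569-29885503 on GRCm39), the heart and muscle form of subunit VIIa of complex IV, had the largest fold change of any member tested. Its levels in unstimulated replicates 1 to 5 were 7.05, 8.57, 8.55, 7.92 and 5.77 CPM. They were 9.31, 7.02, 8.31, 9.96 and 9.63 CPM at the lower dose and 12.2, 10.5, 12.0, 9.42 and 10.5 CPM at the higher dose. All 5 higher-dose cultures lay above all unstimulated cultures, while the lower-dose cultures overlapped both other groups. The rise was 1.44-fold at the higher dose (log2 fold change 0.53 ± 0.11 SE, FDR = 0.00711) and the mean of both doses was also above the unstimulated level (log2 fold change 0.38 ± 0.10 SE, FDR = 0.0207). The lower dose gave a log2 fold change of 0.23 ± 0.12 SE with an FDR of 0.260, and the doses differed by 0.30 ± 0.11 SE with an FDR of 0.270. *Cox7a1* remained the lower partner in its pair: its share of the summed TPM of *Cox7a1* and *Cox7a2*, the form of most tissues, was 13.7% ± 1.25 (SD, n = 5) in unstimulated cultures, 16.2% ± 1.34 at the lower dose and 18.3% ± 0.596 at the higher dose. *Cox7a2* itself stood at 94.4, 90.7 and 97.3 CPM in the 3 groups, and its log2 fold change at the higher dose was 0.04 (FDR = 0.730). Transcript *Cox7a1-201* carried 98.5% of the gene's reads.

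*Cox5a* (ENSMUSG00000000088, chr9:57428456-57440678 on GRCm39), a subunit on the matrix side of complex IV, rose at the higher dose. Its levels were 53.4, 63.2, 65.4, 64.7 and 59.5 CPM in unstimulated replicates 1 to 5. They were 62.5, 61.2, 68.1, 67.1 and 64.1 CPM at the lower dose and 71.9, 76.1, 69.4, 69.8 and 66.8 CPM at the higher dose. The higher-dose cultures all exceeded the unstimulated ones, the lowest of them by a small margin (66.8 against 65.4 CPM), and the lower-dose cultures overlapped both groups. The log2 fold change was 0.21 ± 0.05 SE at the higher dose (FDR = 0.0219) and 0.08 ± 0.05 SE at the lower dose (FDR = 0.436). The call was lost without unstimulated replicate 1 or 5, with FDR up to 0.0570. Its matrix-side partner *Cox5b* stood at 94.3, 96.3 and 101 CPM in the 3 groups and was not called (log2 fold change 0.10 at the higher dose, FDR = 0.311). Beside these 2 genes, 2 of the 93 members tested (2.15%), no other tested member had all higher-dose cultures outside the unstimulated range, which held for 7.17% of all genes tested.

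*Ndufv1* (ENSMUSG00000037916, chr19:4057384-4062814 on GRCm39) encodes the subunit of complex I that binds NADH and FMN, where electrons enter the chain. Its levels in unstimulated replicates 1 to 5 were 78.3, 88.6, 86.3, 88.7 and 85.2 CPM. They were 92.2, 88.6, 91.2, 93.3 and 93.5 CPM at the lower dose and 97.5, 84.0, 102, 98.8 and 95.9 CPM at the higher dose. Replicate 2 was the one higher-dose culture inside the unstimulated range. The rise at the higher dose was 1.12-fold (log2 fold change 0.16 ± 0.05 SE, FDR = 0.0431), and it was 0.21 with an FDR of 0.00258 without that culture. Called at this dose in 14 of 25 other settings, it was among the weakest calls: it was lost without higher-dose replicate 1, 3, 4 or 5, lower-dose replicate 3 or unstimulated replicate 1, 3 or 5, with FDR up to 0.118. It was also lost with the replicate number as a block (FDR = 0.0642), with no filter on low counts (FDR = 0.0750) and with only the groups compared (FDR = 0.0980). The lower dose gave 0.10 ± 0.05 SE (FDR = 0.221).

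*Cox7a2l* (ENSMUSG00000024248, chr17:83765970-83824759 on GRCm39), placed in complex IV by its symbol, was the one member called at the lower dose. It stood at 151, 158, 163, 164 and 146 CPM in unstimulated replicates 1 to 5. The lower-dose cultures stood at 135, 134, 138, 140 and 142 CPM and the higher-dose cultures at 152, 136, 151, 149 and 141 CPM. All lower-dose cultures lay below all unstimulated ones, and the higher-dose cultures overlapped both groups. The log2 fold change was -0.18 ± 0.04 SE at the lower dose (FDR = 0.0148), -0.10 ± 0.04 SE at the higher dose (FDR = 0.149) and -0.14 ± 0.04 SE for the mean of both (FDR = 0.0190). Transcript *Cox7a2l-201* carried 97.7% of the reads and stood at 249 to 264 TPM in unstimulated cultures and 223 to 247 TPM at the lower dose. *Ndufv3*, an accessory subunit of complex I, was the other tested member whose lower-dose cultures all lay below the unstimulated ones (60.5 to 66.3 against 66.8 to 75.1 CPM), with a log2 fold change of -0.13 and an FDR of 0.193. These 2 genes are 2.15% of the members tested, and 8.89% of all genes tested had no overlap in that comparison. Between the 2 doses no member was free of overlap, against 2.97% of all genes. Markers of microglia also moved at the lower dose, with 5 of 9 called and all 5 lower (summed level 4060 ± 455 against 5460 ± 826 CPM), while 3 of 8 astrocyte markers rose (summed level 7381 ± 476 against 6483 ± 311 CPM), and their part in the result was not tested. At the higher dose 3 of 8 markers of the oligodendrocyte lineage were called, all lower (summed level 6826 ± 487 against 8565 ± 1047 CPM), while 2 of 6 fibroblast and meninges markers and 1 of 8 astrocyte markers rose, and their part in the results at that dose was likewise not tested. Of all genes tested, 4.16% were called up and 3.71% down at the lower dose, and 5.83% up and 3.93% down at the higher dose. In bulk RNA, fewer cells of a type and less RNA per cell cannot be told apart.

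**Figure D2:**
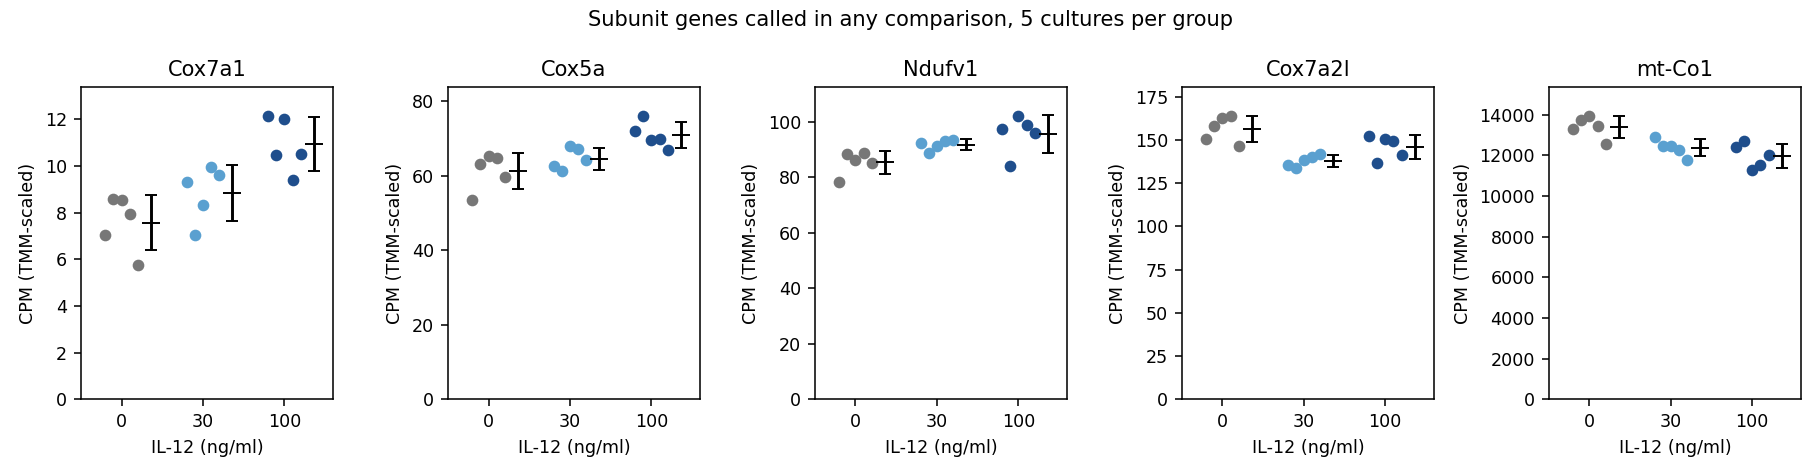
TMM-scaled CPM of the 5 subunit genes called in any comparison, with 1 point for each culture at 0, 30 and 100 ng/ml IL-12 and the mean ± SD of each group (n = 5) beside the points. Cox7a1 and Cox5a at the higher dose and Cox7a2l at the lower dose do not overlap the unstimulated cultures, while Ndufv1 and mt-Co1 do at the higher dose.

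The remaining nuclear subunits differed little between groups, complex by complex. In complex I, the 37 nuclear genes tested had a median log2 fold change of 0.05 at the higher dose, from -0.11 (*Ndufv3*) to 0.19 (*Ndufs8*, an iron-sulfur subunit, FDR = 0.0725), and only *Ndufv1* was called. In complex II the median of the 4 genes was 0.03, with *Sdhb*, the iron-sulfur subunit, at 0.13 (FDR = 0.0697) and *Sdha* at -0.05 (FDR = 0.377). In complex III the 8 nuclear genes had a median of 0.06 and a lowest FDR of 0.393. In complex IV the median of the 13 nuclear genes was 0.04, and in complex V that of the 18 nuclear genes was 0.06. Of these 18, *Atp5mc1* had the highest value, 0.18 (FDR = 0.0803), and *Atp5f1b*, at 0.12, the lowest FDR (0.0730). These FDR are from edgeR, and DESeq2 called *Sdhb* and *Atp5f1b* at the higher dose, where it called 12.8% of all genes. *Atp5if1*, the inhibitor of ATP synthase, stood at 93.1, 92.1 and 98.7 CPM in the 3 groups (edgeR FDR = 0.392 at the higher dose). The nuclear medians at the lower dose were -0.02, 0.02, -0.01, -0.02 and -0.01 in complexes I to V.

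**Figure D3:**
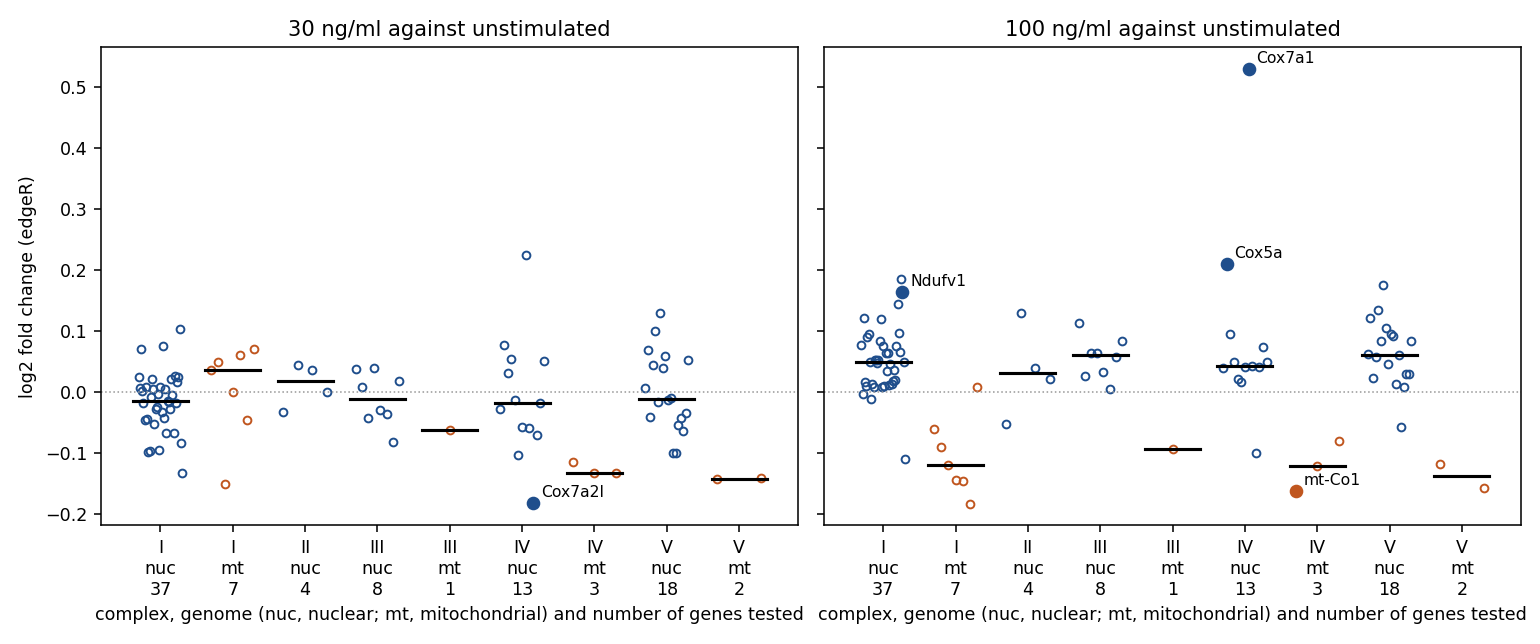
Log2 fold change against unstimulated cultures for each subunit gene tested, by complex and genome, at the lower dose (left) and the higher dose (right), where blue is nuclear, orange mitochondrially encoded, a filled and named point a gene called at an FDR under 0.05, and a bar the median. At the higher dose the nuclear medians lie between 0.03 and 0.06 and those of the mitochondrially encoded genes between -0.14 and -0.09.

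For most nuclear members the intervals were narrow. The 95% interval of the log2 fold change lay within 0.3 of 0 in either direction for 74 of the 80 nuclear genes at the higher dose, for 79 at the lower dose and for 78 between the doses. At the higher dose 74 of 80 nuclear genes had a log2 fold change above 0, with a median of 0.05, while the median over all genes tested was -0.004. All were measured in the same cultures, so these directions are not separate observations. Most of the nuclear messages are short: the median transcript length of the nuclear members was 695 bases, and that of all genes tested was 2784 bases. The 1117 other genes under 1000 bases had a median log2 fold change of 0.04 at the higher dose, beside 0.05 for the nuclear members. At the lower dose both medians were -0.01. At the higher dose 684 of these 1117 short genes were above 0, and so were 7473 of all 15360 genes tested. With each culture's trend with transcript length removed, an alternative chosen after seeing the data, the nuclear median at the higher dose was 0.02, with 57 of 80 genes above 0. The direction also leaned on single cultures: 55 of 80 were above 0 without higher-dose replicate 1 and 59 without unstimulated replicate 1, each with a median of 0.02.

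The mitochondrially encoded genes leaned the other way at the higher dose. 12 of the 13 had a log2 fold change below 0, with a median of -0.12, and 1 of them was called. The median was -0.08 without unstimulated replicate 2, with 12 of 13 still below 0. These genes are cut from shared long RNAs and were measured in the same cultures, so their directions are not separate observations. Their summed CPM overlapped between unstimulated cultures (35733 to 41328) and the higher dose (33460 to 38510). At the lower dose 9 of 13 were below 0, with a median of -0.06 and none called by edgeR, although 2 had an unadjusted p under 0.05 and DESeq2 called *mt-Co1*. Without replicate 2 of the higher-dose cultures, the median at that dose was -0.18 for the mitochondrially encoded and 0.07 for the nuclear genes, and 13 members were called there (14%, against 19.1% of all genes in that fit). 9 of those 13 were nuclear genes that were higher (*Atp5f1b*, *Atp5mc1*, *Atp5mc2*, *Atp5po*, *Cox5a*, *Cox7a1*, *Ndufa11*, *Ndufs8* and *Ndufv1*) and 4 were mitochondrially encoded genes that were lower (*mt-Atp8*, *mt-Co1*, *mt-Nd4l* and *mt-Nd5*).

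*mt-Co1* (ENSMUSG00000064351, chrM:5328-6872 on GRCm39), the catalytic core subunit of complex IV, was the most abundant member, at 14992 ± 465 TPM (SD, n = 5) in unstimulated cultures. Its CPM were 13280, 13754, 13956, 13424 and 12575 in unstimulated replicates 1 to 5. They were 12921, 12473, 12441, 12278 and 11754 at the lower dose and 12389, 12706, 11274, 11514 and 12023 at the higher dose. Of the higher-dose cultures, all but replicate 2 lay below the lowest unstimulated culture. The gene fell by 0.16 ± 0.05 SE on the log2 scale at the higher dose (FDR = 0.0336) and by 0.14 ± 0.04 SE in the mean of both doses (FDR = 0.0290). Its log2 fold change at the lower dose was -0.11 ± 0.05 SE (FDR = 0.135). The call at the higher dose held in 14 of 24 other settings, and FDR ranged from 9.51e-04 to 0.147. It was lost without higher-dose replicate 3, 4 or 5 or unstimulated replicate 1, 2, 3 or 4 (FDR up to 0.0916), and also with only the groups compared (0.0760), at least 10 counts in every culture (0.0605) and no filter on low counts (0.147). The other core subunits of complex IV, *mt-Co2* and *mt-Co3*, were at -0.12 and -0.08 at the higher dose (FDR = 0.276 and 0.459) and at -0.13 and -0.13 at the lower dose (FDR = 0.257 and 0.217).

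Of the 7 complex I genes of the mitochondrial genome, 6 had a log2 fold change below 0 at the higher dose and 3 at the lower dose. EdgeR called none of them (3 and 0 had an unadjusted p under 0.05), while DESeq2 called *mt-Nd5* at the higher dose. *mt-Nd5*, a proton-pumping subunit, stood at 2676 ± 117, 2592 ± 215 and 2358 ± 232 CPM (SD, n = 5) without IL-12 and at the lower and higher dose (log2 fold change -0.18 at the higher dose, FDR = 0.0917), and 4 of 5 higher-dose cultures were below the unstimulated range. *mt-Nd4l* stood at 397 ± 26.5, 414 ± 28.5 and 359 ± 26.4 CPM, and its difference between the doses, -0.21 on the log2 scale with an unadjusted p of 0.00342, had an FDR of 0.168. *mt-Nd4* was at -0.14 (FDR = 0.163), *mt-Nd3* at -0.12 (FDR = 0.412), *mt-Nd2* at -0.09 (FDR = 0.442) and *mt-Nd1* at -0.06 (FDR = 0.490) at the higher dose. *mt-Cytb*, the one mitochondrially encoded subunit of complex III, was at -0.09 (FDR = 0.266).

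*mt-Nd6* stood apart. It is the one protein gene read from the other strand, its message is known to lack a poly(A) tail, and the libraries were made with a kit that selects poly(A) RNA. It stood at 118 ± 13.4 TPM in unstimulated cultures, where the other 12 mitochondrially encoded genes were between 2508 and 14992 TPM. Its log2 fold change at the higher dose was 0.01 with a 95% interval from -0.39 to 0.41, the widest among the mitochondrially encoded genes, and the sign rests on replicate 2. That culture stood at 54.5 CPM and the other higher-dose cultures at 25.0 to 29.6 CPM, and without it the log2 fold change was -0.26 ± 0.13 SE (FDR = 0.155). It shares 14 bases with *mt-Nd5* on opposite strands (chrM:13552-13565).

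The 2 ATP synthase genes overlap in the genome, which bears on how their reads were divided. The shared stretch of 43 bases (GRCm39, + strand, chrM:7927-7969) is shown with the start codon of *mt-Atp6* in capitals, which lies inside the reading frame of *mt-Atp8*.
mt-Atp8 and mt-Atp6 overlap: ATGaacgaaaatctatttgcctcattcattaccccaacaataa
*mt-Atp6* stood at 3619 ± 372, 3278 ± 239 and 3334 ± 383 CPM (SD, n = 5) without IL-12 and at the lower and higher dose, and its log2 fold change was -0.14 at the lower dose (FDR = 0.315) and -0.12 at the higher dose (FDR = 0.381). *mt-Atp8* stood at 257 ± 38, 233 ± 22.1 and 230 ± 53.3 CPM, and its log2 fold change was -0.14 at the lower dose (FDR = 0.551) and -0.16 at the higher one (FDR = 0.459). Without replicate 2 at the higher dose, the 4 other cultures of *mt-Atp8* stood at 207 ± 7.76 CPM.

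**Figure D4:**
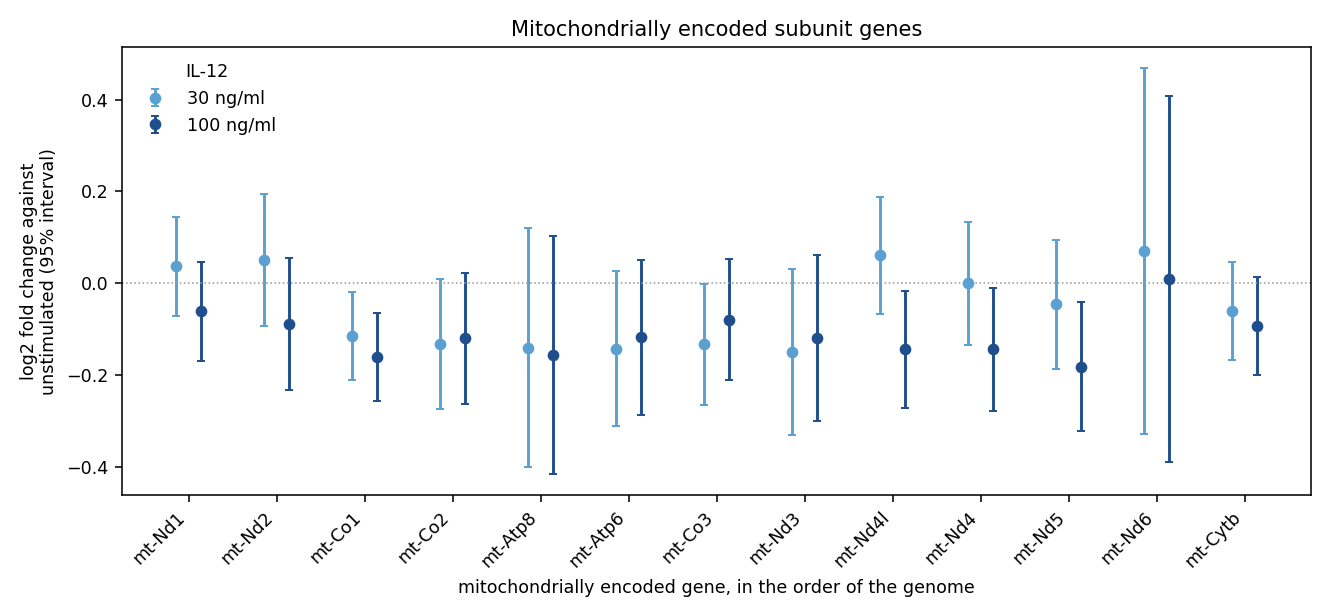
Log2 fold change of the 13 mitochondrially encoded genes against unstimulated cultures at the lower dose (light) and the higher dose (dark) with 95% intervals from edgeR, in the order of the mitochondrial genome. At the higher dose all but mt-Nd6 (0.01, and -0.26 without replicate 2) lie below 0. The intervals are not adjusted for the number of genes. At the higher dose 4 of them exclude 0 and at the lower dose 2, with mt-Co1 among them at both. Only mt-Co1 at the higher dose was called by edgeR.

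Summed over genes, the mitochondrial messages took 3.87% ± 0.206 (SD, n = 5) of the reads in unstimulated cultures, 3.70% ± 0.185 at the lower dose and 3.56% ± 0.218 at the higher dose. The nuclear members took 0.922% ± 0.0418, 0.932% ± 0.0296 and 0.963% ± 0.0587. The ratio of mitochondrial to nuclear messages in CPM was 4.45, 4.26, 4.14, 4.16 and 4.01 in unstimulated replicates 1 to 5. It was 4.35, 4.22, 3.96, 3.68 and 3.67 at the lower dose and 3.60, 4.24, 3.30, 3.62 and 3.81 at the higher dose. The group means were 4.20 ± 0.166, 3.98 ± 0.309 and 3.71 ± 0.347 (SD, n = 5), and the ranges overlapped. Without replicate 2, the 4 higher-dose cultures had a ratio of 3.58 ± 0.209 (SD), and all 4 lay below the lowest unstimulated culture. The ratio is a description of the members and was given no test.

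**Figure D5:**
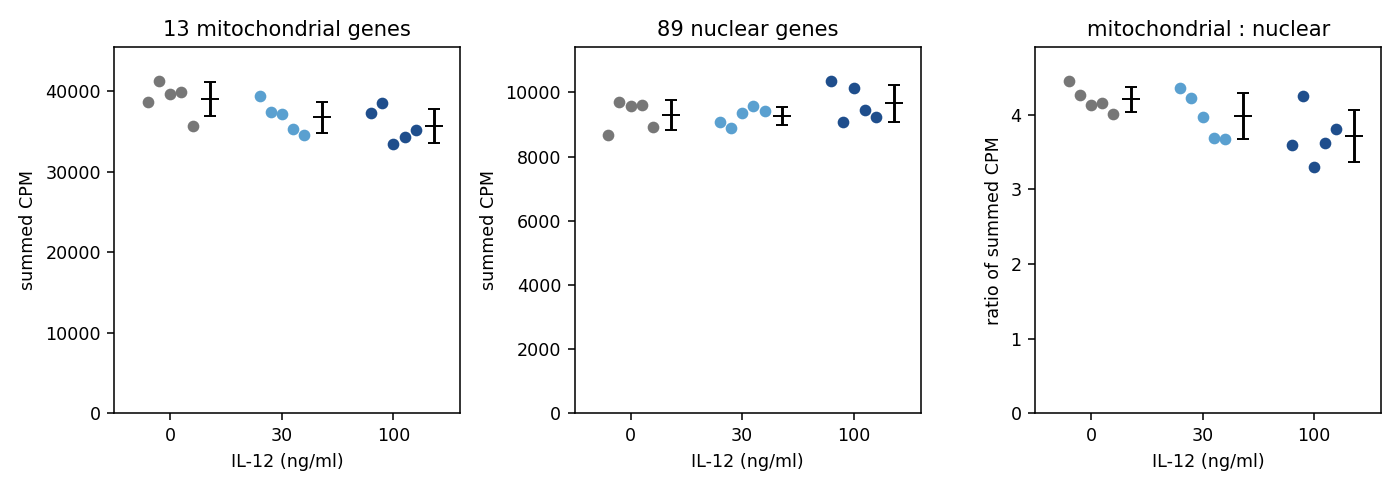
Summed CPM of the 13 mitochondrially encoded genes (left), of the 89 nuclear genes (centre) and their ratio (right) in each culture at 0, 30 and 100 ng/ml IL-12, with the mean ± SD of each group (n = 5). Group means of the ratio are 4.20, 3.98 and 3.71, and the higher-dose culture at 4.24 is replicate 2.

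Among the other genes of the pathway, *Ogdh* changed by more than any subunit. Among 17 enzymes of the tricarboxylic acid cycle, which supplies NADH and succinate, 2 rose at the higher dose (11.8%), *Ogdh* and *Dlst*, both parts of the 2-oxoglutarate dehydrogenase complex. *Ogdh* stood at 174 ± 8.93 CPM in unstimulated cultures, 274 ± 10.9 at the lower dose and 286 ± 10.2 at the higher dose (SD, n = 5), a log2 fold change of 0.72 (FDR = 1.62e-08) and 0.66 at the lower dose (FDR = 2.55e-07). Among 17 genes of the carriers, import machinery and outer membrane, 2 rose at the higher dose (11.8%). *Slc25a5*, an ADP/ATP carrier, rose by 0.25 (FDR = 0.00200) and *Slc25a3*, the phosphate carrier, by 0.23 (FDR = 0.00224). Both also rose at the lower dose (11.8% of the list, where 7.87% of all genes were called and 4.16% rose). These carriers bring in the substrates of complex V. Of 6 electron and acyl carriers tested, 1 was called at the higher dose (16.7%). This was *Cycs* (cytochrome c), which rose by 0.30 (FDR = 0.0164), and the complex III subunit *Cyc1* was at 0.16 (FDR = 0.118). The shares called in these lists and those that follow stand beside the 9.77% of all genes called at that dose.

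Of 54 assembly factors tested, 4 rose at the higher dose (7.41%) and none fell, namely *Ecsit*, *Ndufaf1* and *Ndufaf5*, which act in the assembly of complex I, and *Cox19*, which acts in that of complex IV. *Ecsit* and *Cox10*, an enzyme of heme a synthesis, rose at the lower dose (3.70%, where 7.87% of all genes were called and 4.16% rose). *Ecsit* stood at 17.2 ± 0.906, 19.5 ± 0.954 and 21.0 ± 1.18 CPM (SD, n = 5) without IL-12 and at the lower and higher dose. Of 78 mitochondrial ribosomal protein genes, whose products translate the mitochondrial messages, 4 rose at the higher dose (5.13%) and none fell, and their median log2 fold change was 0.08. Of 19 regulators of mitochondrial biogenesis, 0 were called by edgeR at either dose, with 3 at an unadjusted p under 0.05 at the higher dose and 2 at the lower dose. *Polrmt*, the mitochondrial RNA polymerase, and *Pprc1*, a coactivator, were called up in the mean of both doses (2 of 19, 10.5%, where 11.9% of all genes were called and 6.71% were called up). *Ppargc1a*, the best-known coactivator of this programme, stood at 17.0, 17.8 and 17.1 CPM, and *Tfam*, which packages and transcribes mitochondrial DNA, at 31.6, 30.2 and 30.5 CPM.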

How the data were processed

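RNA-seq libraries (stranded mRNA kit, per the labels) of 15 cultures were used. According to the submitters' processing notes, FastQC 0.10.0, STAR 2.7.8a and featureCounts were used with GRCm39. The deposited files hold another kind of value, an estimated count and a TPM for each of 121798 transcripts, computed by the authors with a program not given in the sources used here, although counts per gene had been assumed when the tests were planned. Estimated counts were summed to genes with GENCODE M39 on GRCm39, which matched 98.96% of the transcripts, and rounded, while the deposited TPM were summed. Members are protein-coding genes of the rule, and 19 matching symbols that are not protein-coding were left out. None of these 19 is in the data, so reads of processed pseudogenes or of nuclear copies of mitochondrial DNA could have been assigned to members.

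Genes that reached 1 CPM in 2 or more cultures were scaled by TMM (factors 0.981 to 1.02) and tested with edgeR 4.0.16 (quasi-likelihood, R 4.3.3, limma 3.58.1) with no covariate. The biological coefficient of variation was 8%. Levels in CPM are TMM-scaled, the filter used unscaled library sizes, and intervals are 95%. DESeq2 1.42.0, other scalings and filters, the groups compared alone, a replicate block, pooled pseudogenes, a correction for length and each culture left out were the alternatives. Named are the mitochondrial genes, members called in any comparison, isoform pairs and the highest and lowest gene of each complex. Members and lists were chosen with earlier results of these data known, and *Ndufs8*, *Ndufv3*, *Sdhb*, *Atp5f1b* and *Cox5b* were named after their values were seen. Figures were drawn with Python 3.11.15 and matplotlib 3.10.9. Over all genes tested, the log2 counts of any pair of cultures correlated between 0.9838 and 0.9933, so no 2 cultures held identical values.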

Additional observations from a re-analysis of the deposited data

Results flagged for a closer look

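In 3 of 129 groups of 5 cultures examined (43 members and sums, each in 3 groups), one culture stood apart from the other 4 by a gap of more than 0.71 of the range of its group (Dixon's test). Chance flags about 1 in 20 groups. The level of *mt-Nd6* in replicate 2 at 100 ng/ml was 54.5 CPM, with the other 4 cultures between 25.0 and 29.6 CPM. In the same culture *mt-Atp8* was at 325 CPM, and the others of the group lay between 198 and 215 CPM. The third was *Atp5mc3* in unstimulated replicate 1, at 161 CPM against 173 to 178 CPM in the other unstimulated cultures. No test of the difference between the doses called a member.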

How the results depend on the processing

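No call changed direction. With one culture left out, the median log2 fold change at 100 ng/ml ranged from 0.02 to 0.08 for the nuclear genes (lowest without higher-dose replicate 1) and from -0.18 to -0.08 for the mitochondrially encoded ones (-0.08 without unstimulated replicate 2). The move to -0.18 is slightly under 1.5 times in value, and the other moves are over it. The SD of the per-culture medians within groups was 0.0768 and 0.0806. Leaving out 1 culture of 5 can hardly move a median by that much, so this SD is no yardstick for the moves. The median of complex III ranged from 0.006 to 0.07, and that of complex II reached -0.0004. At 100 ng/ml the 4 members called became 2 without a filter on low counts, 7 with DESeq2, 2 with only the groups compared, 7 with the trend with transcript length removed (chosen after seeing the data) and 1 to 13 with one culture left out. The lowest counts were 1 without unstimulated replicate 1 and 2 each without unstimulated replicate 3 or 5 or higher-dose replicate 3 or 4. With the lower dose the 1 call became 2 with DESeq2, 2 with the length trend removed and 1 to 2 with one culture left out (2 without replicate 2 at 100 ng/ml). For the mean of both doses the 3 calls became 6 with library size only, 1 without a filter, 6 with DESeq2, 7 with the length trend removed and 1 to 8 with one culture left out, the 8 again without replicate 2 at 100 ng/ml and 1 without unstimulated replicate 1, 3 or 4. The cause of these moves was not tested. *Cox7a1* at 100 ng/ml (FDR at most 0.0232) and *Cox7a2l* at 30 ng/ml (FDR at most 0.0484) kept their calls in all 25 settings, and *Cox5a* in 23. Among these settings, pooled pseudogenes could not alter these calls. Only *Cox5b* had a pseudogene by name in the data, with 4 reads over all cultures. The replicate number used as a block gave 3, 1, 0 and 3 calls at 100 ng/ml, at 30 ng/ml, between the doses and for the mean, and *Ndufv1* was no longer called at 100 ng/ml. Same-numbered cultures deviated together with correlations from -0.183 to 0.264, and 5 of 15 correlated best with their own number, so the numbers were not taken as pairs. The 9 members below the filter, with at most 34 reads a culture, were not tested at this depth.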

Other observations

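*Ndufa4l2*, below the filter and so without a test, stood at 0.601, 0.717, 0.694, 0.574 and 0.611 CPM in unstimulated replicates 1 to 5. It stood at 0.533, 0.469, 0.454, 0.505 and 0.466 CPM at 100 ng/ml, with no overlap in CPM. In TPM these groups overlapped (1.30 to 3.44 unstimulated and 0.887 to 1.75 at 100 ng/ml). Of all genes tested, 7.17% had no overlap in CPM in that comparison. At 30 ng/ml it ranged from 0.412 to 0.858 CPM. These values rest on 12 to 26 reads a culture.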
